A study of Mus musculus with 27 samples.

Results

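The genes described here are 41 coagulation and complement factors without the serpins, a set that runs from tissue factor and fibrinogen through plasminogen and its activators to the complement proteases, terminal components and regulators. Each gene was represented by a probe set annotated to its symbol alone, and by the one with the highest mean over all arrays where there were several, which was the case for Fga only. Of the 41 genes, 38 had such a probe set, among 19938 genes measured in the same way. Klkb1 (plasma prekallikrein), Cpb2 (a carboxypeptidase that slows fibrinolysis) and Cfd (factor D of complement) had none and were left out. No filter on dim values was applied, so all 38 were tested.

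Coagulation proceeds through proteases that activate one another on membranes until thrombin cuts fibrinogen into fibrin, and plasmin later dissolves the clot. Complement uses the same kind of cascade to mark surfaces and to assemble a membrane attack complex. Hepatocytes make most of these plasma proteins, whereas tissue factor, thrombomodulin, the urokinase receptor, the thrombin receptor, Cd55 and Cd46 act on cell surfaces.

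The cells were TAMH, a mouse hepatocyte line that carries a transgene for transforming growth factor alpha. They received acetaminophen (APAP, 2 mM), the regioisomer AMAP (2 mM) or control medium. Harvest was at 2, 6 and 24 h, which gives 9 groups of 3 arrays and 27 arrays in all. APAP carries its ring hydroxyl in the para position and AMAP in the meta position. All groups, controls included, were dosed when confluent, in a medium without serum that contained dexamethasone, nicotinamide, gentamicin, insulin, transferrin and selenium. Within a group the arrays are numbered 30, 31 and 32. Whether these are passages or separate cultures is not said, and each treatment used a pair of dishes, so p-values measure only the spread between these samples. All results come from a single cell line.

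Array medians lay between 6.92 and 7.07 on the log2 scale, replicate arrays correlated across genes with r between 0.992 and 0.997, and differences between groups had a median standard error of 0.0986. The number of arrays limits the precision. As a check of the cell type, the mean over 12 hepatocyte markers lay between 11.54 and 12.33 on every array, with albumin (Alb) between 13.45 and 13.98. The mean over 10 endothelial markers lay between 5.73 and 5.99, that over 4 of 6 megakaryocyte and platelet markers between 5.79 and 6.15, that over 10 of 11 macrophage and leukocyte markers between 6.43 and 6.66, and that over 9 fibroblast and stellate cell markers between 7.78 and 8.03. The mean over 5 of 6 biliary markers was the highest of these other lists and the most variable, between 8.21 and 9.21, and keratin 7 (Krt7) and keratin 19 (Krt19), with means of 10.17 and 9.31, were above the array median on all 27 arrays. Among the fibroblast markers vimentin (Vim) and decorin (Dcn) were bright, with means of 12.86 and 11.85, and among the leukocyte markers Cd14 was, with 10.88. In these 3 lists Epcam, Acta2, Des, Pdgfrb, Lrat, Ptprc, Adgre1, Csf1r, Itgam, Clec4f, Lyz2 and Spi1 were above the array median on 0 of 27 arrays. Sox9, Cftr, Col1a1, Col1a2 and Cd68 were above it on all 27, Col3a1 on 25 and Cd3e on 5. In bulk RNA, fewer cells of a type and less RNA per cell cannot be told apart.

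Against control, 1 of the 38 genes fell with APAP at 6 h, where 1.44% of all genes did. At 24 h 1 rose and 1 fell with APAP (3.36% and 5.97% of all genes), and 1 fell with AMAP (0.416%). Counts this small do not show that the set responded less or more than other genes. The lowest adjusted p-values were for differences between the compounds. At 24 h protein S (Pros1) was 1.81-fold higher with APAP than with AMAP, and urokinase (Plau) was higher with APAP than with AMAP at 6 h (1.71-fold) and 24 h (1.59-fold). Against control medium, APAP lowered the lectin pathway protease Masp1 at 6 h (1.54-fold), and at 24 h lowered thrombomodulin (Thbd, 1.45-fold) and raised mannose-binding lectin (Mbl2, 1.25-fold). Masp1 and Thbd are not shown to be particular to APAP. On the log2 scale Masp1 differed by -0.62 with APAP and -0.56 with AMAP, and Thbd by -0.53 and -0.48. Those AMAP differences did not pass the test. AMAP lowered Pros1 at 24 h (1.46-fold). A gene is said to have risen or fallen where its limma adjusted p, corrected over all 19938 genes within a comparison, was under 0.05. Both compounds were set against the same control arrays, so these comparisons are not independent.

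**Figure D1:**
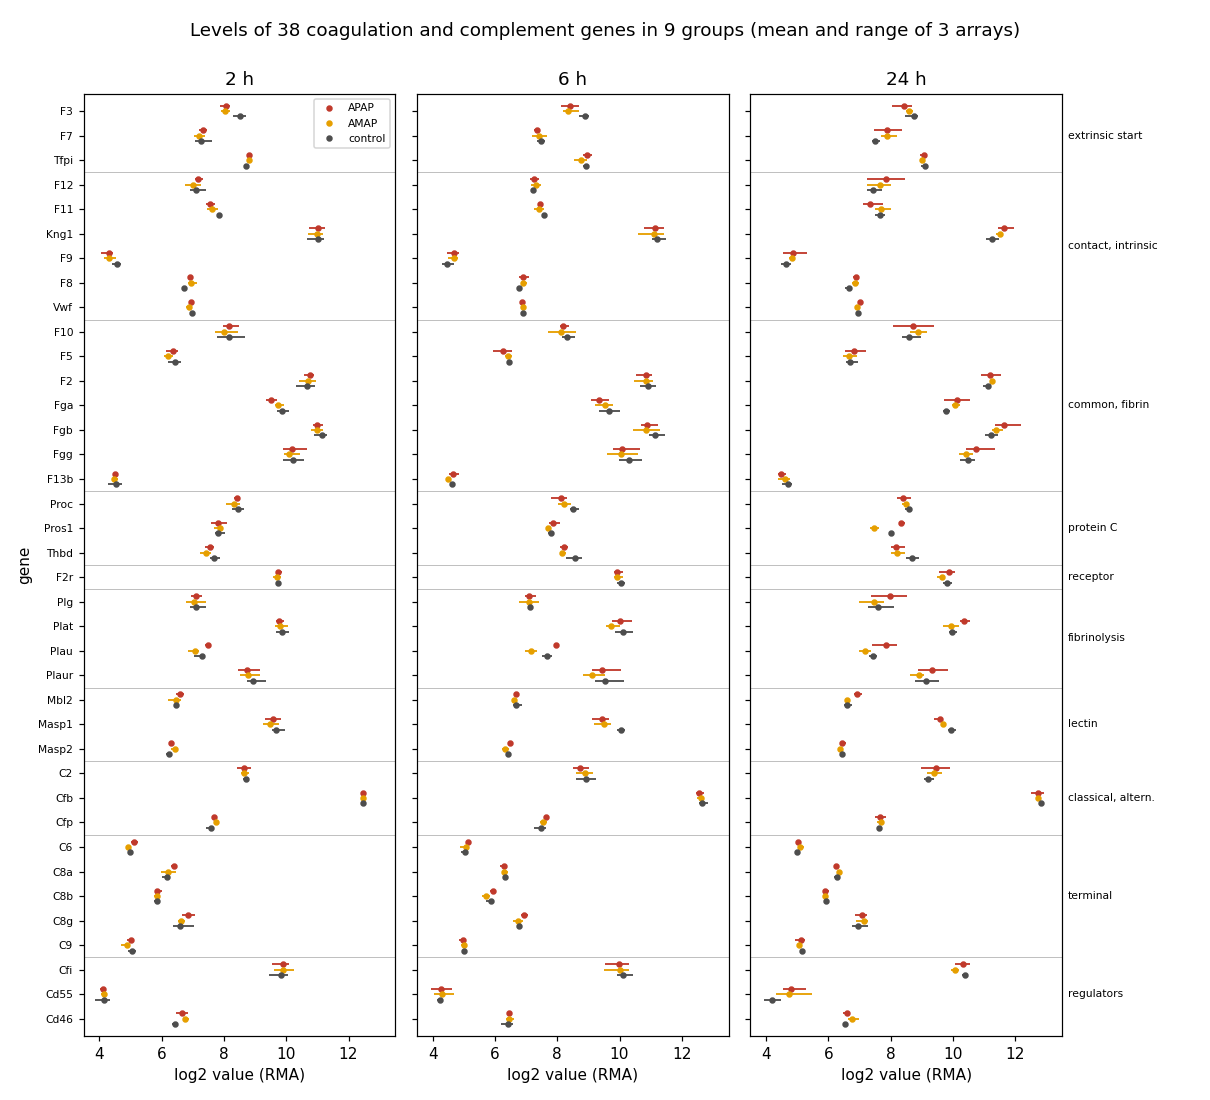
Levels of the 38 genes on the log2 scale of the arrays (horizontal axis), by role, at 2, 6 and 24 h; points are means and lines the range of 3 arrays for APAP, AMAP and control medium. The ranges of the 3 treatments overlap for most genes, and at 24 h Pros1 separates into APAP highest, control between and AMAP lowest.

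Of the 38 probe sets, 21 lay above the array median on all 27 arrays, 9 lay below it on all, and 8 were mixed. Brightness is a property of the probe set as well as of the transcript, so these counts do not rank amounts of RNA. Those below on every array were F9, F13b, Masp2, C6, C8a, C8b, C9, Cd55 and Cd46, and 6 of the 38 had a mean below 6. Complement factor B (Cfb) spanned 12.40 to 12.94 over the 27 arrays, kininogen 1 (Kng1) 10.61 to 11.96, and prothrombin (F2) 10.31 to 11.53.

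Coagulation starts when tissue factor (F3), a membrane receptor, binds factor VII (F7), and tissue factor pathway inhibitor (Tfpi) blocks that complex. At 2 h F3 had log2 values of 8.17, 7.87 and 8.19 with APAP and of 8.18, 7.91 and 8.03 with AMAP, against 8.71, 8.28 and 8.54 with control medium (here and below, values of a group are in the order of numbers 30, 31 and 32). At 6 h it had 8.38, 8.13 and 8.69 with APAP and 8.20, 8.20 and 8.68 with AMAP, against 9.01, 8.70 and 9.00 with control medium. All treated arrays lay below all control arrays at both times, and array 31 was the lowest of its group in each case. The differences were -0.43 ± 0.17 (SE, 3 arrays per group here and below) for APAP at 2 h, -0.50 ± 0.17 for APAP at 6 h, and -0.55 ± 0.17 for AMAP at 6 h. None passed the test, with limma adjusted p = 0.359, 0.125 and 0.183. The array numbers pair the samples in these 3 comparisons, and with the number as a block the adjusted p was 0.0407, 0.00544 and 0.00872. Over all alternatives the adjusted p ranged from 0.0407 to 0.926, from 0.00544 to 0.676 and from 0.00872 to 0.989. For AMAP at 2 h the difference was -0.47 ± 0.17 (adjusted p = 0.487), and there the numbers were not taken to pair the samples. At 24 h the F3 arrays overlapped, with 8.69, 8.06 and 8.57 for APAP and 8.70, 8.48 and 8.61 for AMAP, against 8.89, 8.47 and 8.86 for control medium.

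F7 spanned 7.05 to 8.37, with its largest difference for AMAP minus control at 24 h (0.38 ± 0.18, adjusted p = 0.403). Tfpi spanned 8.54 to 9.18 and differed by at most 0.20 ± 0.09 between treatments (APAP minus AMAP at 6 h, adjusted p = 0.649). In control cultures Tfpi had 8.73, 8.68 and 8.72 at 2 h, 8.89, 8.84 and 9.00 at 6 h, and 9.18, 8.98 and 9.15 at 24 h. All arrays at 24 h lay above all arrays at 2 h, and Tfpi rose by 0.39 ± 0.09 (adjusted p = 0.0371). That call was lost without any single array of the comparison except control array 31 at 24 h, with adjusted p from 0.0672 to 0.213.

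The contact and intrinsic factors include factor XII (F12), which autoactivates on charged surfaces, factor XI (F11), Kng1, factor IX (F9), its cofactor factor VIII (F8) and von Willebrand factor (Vwf), the carrier of factor VIII that endothelium and megakaryocytes are known to make. None of the 6 measured genes passed the test in any of the 9 treatment comparisons. F12 had 7.89, 8.45 and 7.24 with APAP at 24 h and 7.72, 8.0 and 7.25 with AMAP, against 7.72, 7.24 and 7.32 with control medium. Its spread within the APAP group was wider than the difference between groups (0.43 ± 0.21, adjusted p = 0.23). Without APAP array 32 the genes F12 and F7 both passed the test for APAP minus control at 24 h, and over all alternatives F12 had an adjusted p between 0.0169 and 0.96. F11 lay between 7.13 and 8.01 and was 7.14, 7.77 and 7.13 with APAP at 24 h and 7.58, 8.01 and 7.49 with AMAP, against 7.83, 7.66 and 7.51 with control medium. Arrays 30 and 32 of APAP were the lowest of the 9 arrays at 24 h, and array 31 was not. The F11 difference was -0.35 ± 0.14 for APAP minus AMAP and -0.32 ± 0.14 for APAP minus control (adjusted p = 0.167 in both). Kng1 had its largest difference for APAP minus control at 24 h (0.36 ± 0.20, adjusted p = 0.309). F8, F9 and Vwf stayed within 6.54 to 7.13, 4.06 to 5.31 and 6.77 to 7.07, with largest differences of 0.23 ± 0.09, -0.25 ± 0.15 and -0.12 ± 0.07.

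In the common pathway factor X (F10) and its cofactor factor V (F5) convert prothrombin (F2) to thrombin, which cuts the fibrinogen chains encoded by Fga, Fgb and Fgg, and F13b encodes the carrier subunit of the fibrin cross-linking enzyme. None of these 7 genes passed the test in any treatment comparison. The fibrinogen genes are neighbours on mouse chromosome 3 and are shown by their promoters, because their 3 chains make up 1 protein and all 3 were highest on the same array at 24 h. The windows run from 250 bases before to 50 bases after the start and are taken from RefSeq, build GRCm38.p6, which lists a promoter for 27 of the 38 genes. They are at chr3:83025903-83026202 on the plus strand for Fga, chr3:83049814-83050113 on the minus strand for Fgb and chr3:83007474-83007773 on the plus strand for Fgg. Capitals mark matches on either strand to GTTAAT (part of the site of the liver factor HNF1), CTGGGAA (the acute phase element of STAT3 type) and TTGCNNAA (C/EBP type).
Fga: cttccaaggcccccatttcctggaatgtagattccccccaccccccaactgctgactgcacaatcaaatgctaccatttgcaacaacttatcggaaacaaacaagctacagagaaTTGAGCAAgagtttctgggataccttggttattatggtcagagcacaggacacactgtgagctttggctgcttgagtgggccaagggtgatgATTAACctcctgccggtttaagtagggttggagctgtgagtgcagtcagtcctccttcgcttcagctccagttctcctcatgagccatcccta
Fgb: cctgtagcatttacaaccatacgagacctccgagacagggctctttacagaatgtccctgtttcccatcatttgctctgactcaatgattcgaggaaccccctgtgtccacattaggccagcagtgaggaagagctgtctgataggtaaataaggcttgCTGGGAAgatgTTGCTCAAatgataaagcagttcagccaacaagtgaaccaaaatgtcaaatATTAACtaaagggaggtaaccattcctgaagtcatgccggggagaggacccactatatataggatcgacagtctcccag
Fgg: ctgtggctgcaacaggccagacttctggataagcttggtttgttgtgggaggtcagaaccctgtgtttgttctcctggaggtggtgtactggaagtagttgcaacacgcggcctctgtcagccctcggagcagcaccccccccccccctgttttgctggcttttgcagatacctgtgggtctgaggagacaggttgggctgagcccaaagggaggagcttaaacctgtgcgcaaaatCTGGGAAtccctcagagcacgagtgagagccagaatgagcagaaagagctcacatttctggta

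GTTAAT matched Fga (first base at -43 relative to the start) and Fgb (-29), both on the opposite strand, and is present in 7.1% of the 32851 mouse promoters listed. CTGGGAA matched Fgb (-91) and Fgg (-13) and is in 11.1%, and TTGCNNAA matched Fga (-135) and Fgb (-80) and is in 10.8%. Among the 27 listed genes of the set, 8, 6 and 6 had a match. These motifs are given because they matched a fibrinogen window, and others were searched that matched none. The full HNF1 site was found in 0 of the 27 genes. General promoter boxes were found in 2 of the 27 (13.6% of all promoters) and in 6 of the 27 (37.4%). Whether the set is richer in any motif than other promoters was not tested. No motif overlapped another in these windows. A match says that the letters are present and does not show a bound site.

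With APAP at 24 h Fgb had 11.39, 12.19 and 11.35 and with AMAP 11.25, 11.61 and 11.30, against 11.46, 11.04 and 11.14 with control medium. Array 31 with APAP was the highest and the groups overlapped. The Fgb difference was 0.43 ± 0.21 for APAP (95% interval -0.01 to 0.87, adjusted p = 0.234) and 0.17 ± 0.21 for AMAP. Fga had 10.09, 10.56 and 9.72 with APAP and 9.98, 10.22 and 9.99 with AMAP, against 9.91, 9.75 and 9.67 with control medium. Its 3 AMAP arrays lay above all control arrays, and the differences of 0.35 ± 0.18 (APAP) and 0.29 ± 0.18 (AMAP) did not pass the test (adjusted p = 0.271 and 0.6). Fgg had 10.41, 11.37 and 10.49 with APAP and 10.19, 10.64 and 10.44 with AMAP, against 10.72, 10.23 and 10.48 with control medium, which overlap. At 2 and 6 h the 3 fibrinogen differences lay between -0.34 and -0.05 for APAP and between -0.26 and -0.12 for AMAP, and 0 of them passed the test. F10 spanned 7.70 to 9.38, F5 5.95 to 7.20 and F13b 4.27 to 4.84, with largest differences of 0.31 ± 0.27, -0.23 ± 0.16 and -0.21 ± 0.11. F2 differed by at most 0.15 ± 0.18.

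Array 31 of APAP at 24 h was the highest of the 9 arrays at that time for 14 of the 38 genes: F7, F12, Kng1, F9, Vwf, F10, F5, F2, Fga, Fgb, Fgg, Plg, C2 and Cfb. The next highest count at 24 h was 8, for APAP array 32. At the earlier times control array 30 at 2 h and control array 32 at 6 h were each the highest of their 9 arrays for 16 genes, and AMAP array 31 at 6 h was the lowest for 13. The gap to the next array was widest for Fgg (11.37 against 10.72) and Fgb (12.19 against 11.61). The mean over the 12 hepatocyte markers was also highest on that array, at 12.33, against 12.20 on AMAP array 31 and 11.82 on control array 31 at the same time. Their part in the result was not tested. Without that array 3 genes, F11, Mbl2 and Plau, passed the test for APAP minus control at 24 h. Thbd no longer passed without it, and 4 genes passed for APAP minus AMAP.

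**Figure D2:**
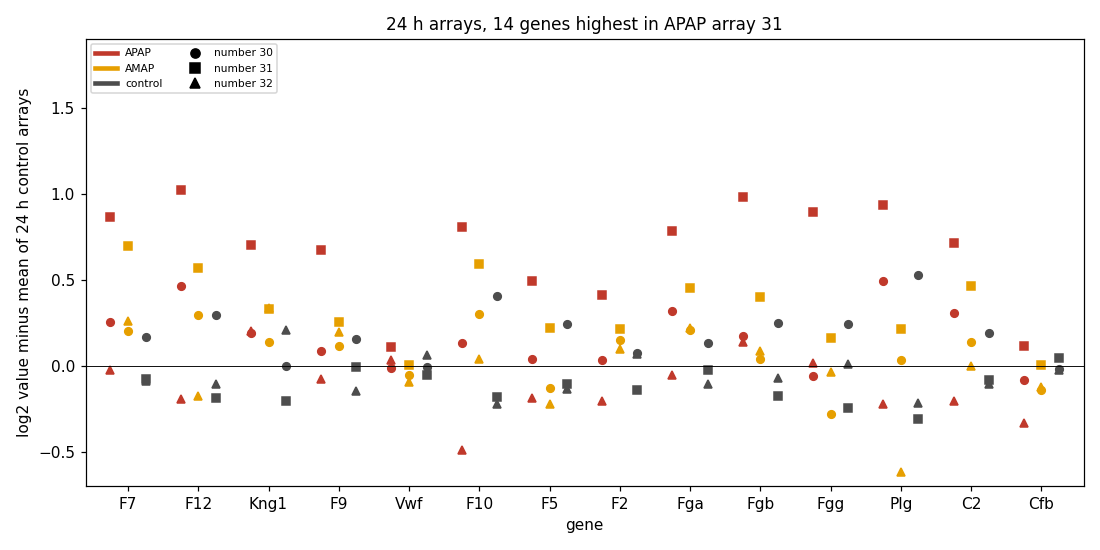
Log2 value minus the mean of the 3 control arrays at 24 h (vertical axis) for the 14 genes that were highest on APAP array 31; colours give the treatment and symbols the array number. The APAP square stands above the other points for each gene because the genes were chosen that way. The circle and triangle of APAP lie among the AMAP and control points for most.

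The protein C system limits clotting: thrombin bound to thrombomodulin (Thbd) activates protein C (Proc), and protein S (Pros1) is its cofactor. Pros1 at 24 h had 8.26, 8.25 and 8.46 with APAP and 7.36, 7.41 and 7.63 with AMAP, against 7.97, 7.97 and 8.09 with control medium. All APAP arrays lay above and all AMAP arrays below all control arrays. Pros1 was higher with APAP than with AMAP by 0.86 ± 0.12 (95% interval 0.61 to 1.1, adjusted p = 4.01e-05), and this call held under every alternative run. AMAP lowered it by 0.55 relative to control (interval -0.79 to -0.30, adjusted p = 0.0241). APAP gave 0.31 ± 0.12 relative to control, which did not pass (adjusted p = 0.104). The AMAP call was kept without AMAP array 32, but was lost without either other AMAP array or without any 1 control array, with adjusted p from 0.061 to 0.134. At 2 h Pros1 had 7.57, 7.76 and 8.09 with APAP and 7.67, 7.95 and 7.96 with AMAP, against 7.70, 7.74 and 8.03 with control medium, which overlap. At 6 h the 3 APAP arrays (7.80, 7.74 and 8.09) lay above the 3 AMAP arrays (7.65, 7.73 and 7.72), with control arrays at 7.71, 7.83 and 7.90 (APAP minus AMAP 0.18 ± 0.12, adjusted p = 0.858). The AMAP effect on Pros1 at 24 h minus that at 2 h was -0.58 ± 0.17 (adjusted p = 0.598), so a difference between these times was not shown.

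Thbd changed most over time. In control cultures it had 7.88, 7.59 and 7.54 at 2 h, 8.67, 8.29 and 8.79 at 6 h, and 8.90, 8.51 and 8.67 at 24 h. Every array at 6 h and 24 h lay above every array at 2 h, while those at 6 h and 24 h overlapped. It rose by 0.92 ± 0.14 at 6 h (1.89-fold, adjusted p = 0.00252) and by 1.02 ± 0.14 at 24 h (2.03-fold, adjusted p = 0.00137), both relative to 2 h. The call at 24 h held under every alternative run, and that at 6 h was lost only when all arrays of number 32 were left out (adjusted p = 0.132). At 24 h Thbd had 8.45, 8.01 and 8.02 with APAP and 8.47, 8.02 and 8.16 with AMAP, against 8.90, 8.51 and 8.67 with control medium. All treated arrays lay below all control arrays. Thbd was lower than control at that time by 0.53 with APAP (interval -0.83 to -0.24, adjusted p = 0.0174), and AMAP gave -0.48 ± 0.14, which did not pass (adjusted p = 0.124). The difference between the compounds was -0.06 ± 0.14 (interval -0.35 to 0.24). The APAP call was lost without APAP array 31 or 32 or control array 30 (adjusted p = 0.0989, 0.0700 and 0.108). At 6 h the values were 8.19, 8.10 and 8.35 with APAP and 8.11, 8.10 and 8.28 with AMAP, against 8.67, 8.29 and 8.79 with control medium. The differences of -0.37 ± 0.14 and -0.42 ± 0.14 at that time did not pass (adjusted p = 0.228 and 0.264). At 2 h they were -0.10 ± 0.14 and -0.24 ± 0.14. With the compounds too, the Thbd group mean was higher at 24 h than at 2 h (APAP 8.16 against 7.57, AMAP 8.22 against 7.43). Those differences over time were not tested.

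Thbd is known as an endothelial gene, and the 10 endothelial markers had an array mean of at most 5.99 in any sample, with no marker passing the test at 24 h with either compound. The mean over the 5 biliary markers was, like Thbd, lower with both compounds than with control medium at 24 h. It was 8.50, 8.21 and 8.40 with APAP and 8.62, 8.21 and 8.40 with AMAP, against 8.99, 8.84 and 8.88 with control medium. Over time in control cultures it did not rise with Thbd, with group means of 8.91 at 2 h, 8.99 at 6 h and 8.90 at 24 h. Of those 5, only Sox9 passed the test with APAP (-0.35 ± 0.11, adjusted p = 0.0441), and none did with AMAP. Sox9 was also lower with APAP than with AMAP at 24 h (-0.47 ± 0.11, adjusted p = 0.0107). With AMAP at 24 h Sox9 had 8.74, 8.79 and 8.52, against 8.63, 8.62 and 8.42 with control medium. In control cultures Sox9 was lower at 24 h than at 2 h (-0.53 ± 0.11, adjusted p = 0.019), while Thbd rose. Of the markers of other cell types, Vim was lower (-0.24 ± 0.07, adjusted p = 0.0331) and the leukocyte factor Spi1 higher (0.33 ± 0.09, adjusted p = 0.0278) with APAP than with control medium at 24 h. Each was the only 1 of its list called in that comparison. The median difference was 0.05 over the 9 fibroblast and stellate cell markers, opposite to Vim. It was 0.10 over the 10 macrophage and leukocyte markers. The part of these markers in the results at 24 h was not tested. Proc spanned 7.80 to 8.70, and its largest difference was for APAP minus control at 6 h, at -0.39 ± 0.14 (adjusted p = 0.17). The thrombin receptor F2r spanned 9.49 to 10.16, with a largest difference of 0.22 ± 0.12 (APAP minus AMAP at 24 h, adjusted p = 0.311).

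**Figure D3:**
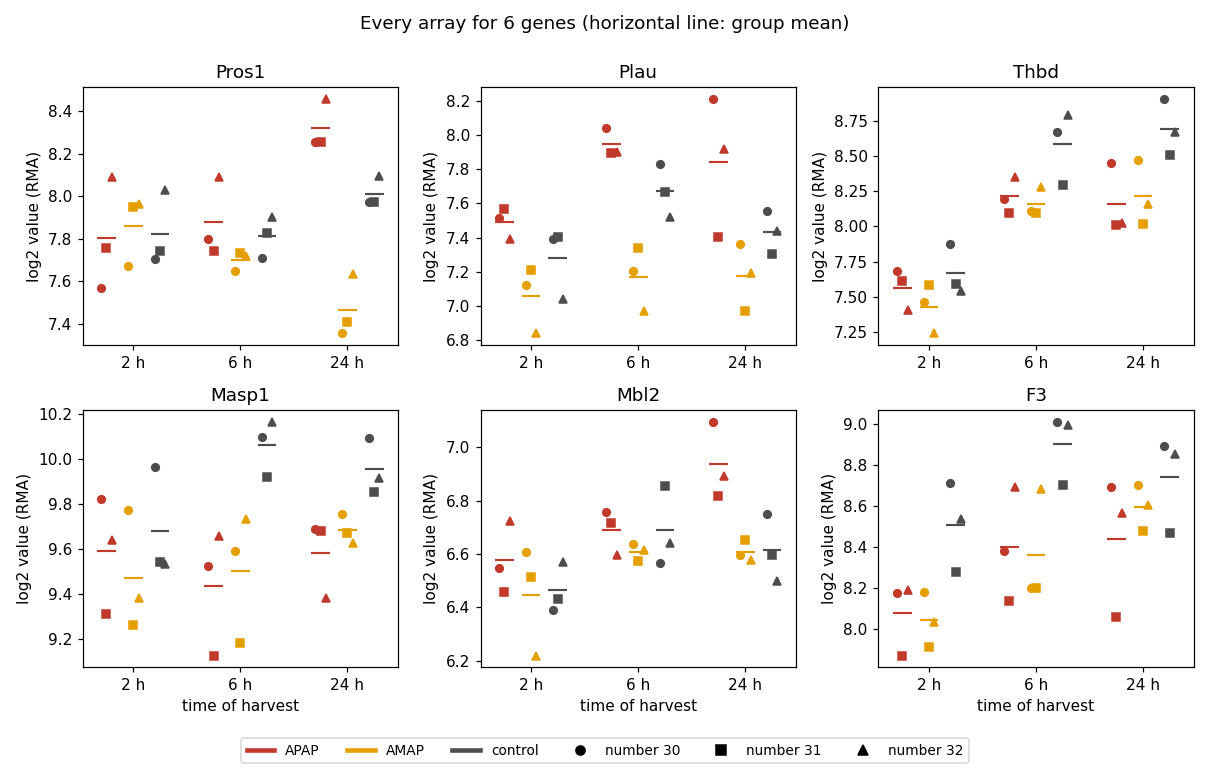
Log2 values of every array (vertical axis) for Pros1, Plau, Thbd, Masp1, Mbl2 and F3 at 2, 6 and 24 h; colours give the treatment, symbols the array number, and horizontal lines the group means. Pros1 at 24 h and Plau at 6 h have the 3 treatments in separate ranges, with APAP above and AMAP below control.

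Fibrinolysis turns on plasminogen (Plg), the zymogen of plasmin, its activators tissue plasminogen activator (Plat) and urokinase (Plau), and the urokinase receptor (Plaur). At 6 h Plau had 8.04, 7.90 and 7.90 with APAP and 7.20, 7.34 and 6.97 with AMAP, against 7.83, 7.66 and 7.52 with control medium. The 3 ranges did not overlap, with APAP highest, control between and AMAP lowest. The difference between the compounds was 0.77 ± 0.15 (interval 0.47 to 1.08, adjusted p = 0.00861), while APAP minus control (0.27 ± 0.15, adjusted p = 0.504) and AMAP minus control (-0.50 ± 0.15, adjusted p = 0.175) did not pass. At 24 h Plau had 8.21, 7.40 and 7.92 with APAP and 7.36, 6.97 and 7.19 with AMAP, against 7.56, 7.30 and 7.44 with control medium. All APAP arrays lay above all AMAP arrays, and APAP array 31 lay within the control range. The difference between the compounds was 0.67 ± 0.15 (interval 0.36 to 0.98, adjusted p = 0.00863), and APAP minus control was 0.41 ± 0.15 (adjusted p = 0.0853). The group means had the same order at 2 h, with 7.51, 7.57 and 7.39 for APAP and 7.12, 7.21 and 6.84 for AMAP, against 7.39, 7.41 and 7.04 for control medium (APAP minus AMAP 0.43 ± 0.15, adjusted p = 0.348). Of the 2 calls, that at 6 h was lost without AMAP array 32 or APAP array 30 (adjusted p = 0.05002 and 0.0522), and that at 24 h without AMAP array 31 or APAP array 30 (adjusted p = 0.0555 and 0.0739). The call at 24 h was also lost when the 6 arrays were fitted alone (adjusted p = 0.118), and over all alternatives the adjusted p was between 0.00225 and 0.217 at 6 h and between 0.000272 and 0.166 at 24 h.

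The other fibrinolysis genes did not pass the test in any treatment comparison. Plat had 10.28, 10.23 and 10.56 with APAP at 24 h and 9.96, 9.69 and 10.19 with AMAP, against 9.91, 9.87 and 10.13 with control medium. All 3 APAP arrays lay above both other groups, by 0.41 ± 0.17 relative to AMAP (adjusted p = 0.181) and 0.39 ± 0.17 relative to control (adjusted p = 0.168). Plg had 8.08, 8.52 and 7.36 with APAP at 24 h and 7.62, 7.80 and 6.97 with AMAP, against 8.12, 7.28 and 7.37 with control medium, which overlap. Plaur spanned 8.46 to 10.13 and was highest on array 32 of each group at 6 h, at 10.06 with APAP and 9.54 with AMAP, against 10.13 with control medium. Its largest difference was -0.43 ± 0.29 (AMAP minus control at 6 h, adjusted p = 0.702). Over the 4 fibrinolysis genes at 24 h, the differences lay between 0.41 and 0.67 for APAP minus AMAP, between 0.20 and 0.41 for APAP minus control, and between -0.26 and -0.02 for AMAP minus control.

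In the lectin pathway of complement, mannose-binding lectin (Mbl2) binds sugars on microbes and carries the proteases Masp1 and Masp2. Masp1 at 6 h had 9.52, 9.13 and 9.66 with APAP and 9.59, 9.18 and 9.74 with AMAP, against 10.10, 9.92 and 10.17 with control medium. All treated arrays lay below all control arrays. Masp1 fell by 0.62 with APAP (interval -0.95 to -0.30, adjusted p = 0.0289). The biliary marker mean was also lower with both compounds at 6 h. It was 8.81, 8.59 and 8.74 with APAP and 8.72, 8.50 and 8.51 with AMAP, against 9.03, 8.89 and 9.04 with control medium. Cd14 was lower at that time too, with differences of -0.40 ± 0.08 with APAP (adjusted p = 0.0045) and of -0.34 ± 0.08 with AMAP (adjusted p = 0.0487). It was the only 1 of the 10 macrophage and leukocyte markers called there. Their median difference was -0.03 with APAP and 0.03 with AMAP. The part of these markers in the Masp1 result was not tested. For Masp1 with AMAP the difference was -0.56 ± 0.16, with adjusted p = 0.132 without and 0.0224 with the array number as a block, and a range over the alternatives from 0.0224 to 0.584. The compounds differed by -0.07 ± 0.16 (interval -0.39 to 0.26). The APAP call was lost without APAP array 30 or 31 or control array 30 or 32 (adjusted p = 0.0548, 0.22, 0.101 and 0.112). At 24 h Masp1 had 9.69, 9.68 and 9.39 with APAP and 9.76, 9.67 and 9.63 with AMAP, against 10.09, 9.85 and 9.92 with control medium. The treated arrays again lay below all control arrays, with -0.37 ± 0.16 for APAP (adjusted p = 0.157) and -0.27 ± 0.16 for AMAP (adjusted p = 0.559).

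Mbl2 at 24 h had 7.1, 6.82 and 6.89 with APAP and 6.60, 6.65 and 6.58 with AMAP, against 6.75, 6.59 and 6.50 with control medium. All APAP arrays lay above all others. Mbl2 rose by 0.32 ± 0.10 with APAP relative to control (interval 0.12 to 0.53, adjusted p = 0.0408). Relative to AMAP the difference was 0.33 ± 0.10, with adjusted p = 0.0569 without and 0.049 with the array number as a block, between 0.0384 and 0.451 over the alternatives. The call against control was lost after quantile normalization or centring of the arrays (adjusted p = 0.142 and 0.0845) and when the 6 arrays were fitted alone (adjusted p = 0.1). It was also lost without APAP array 30 or 32 or control array 31 or 32 (adjusted p = 0.189, 0.0566, 0.117 and 0.171), within a range over all alternatives of 0.0276 to 0.227. The signal of Mbl2 was above the array median on 1 of 27 arrays. Masp2 spanned 6.13 to 6.59 with a largest difference of 0.19 ± 0.08 (AMAP minus control at 2 h, adjusted p = 0.603).

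Of the classical and alternative pathways, C2 is the protease subunit of the classical convertase, Cfb that of the alternative convertase, and properdin (Cfp) stabilises the alternative one. None passed the test in any treatment comparison. C2 had 9.50, 9.90 and 8.98 with APAP at 24 h and 9.33, 9.65 and 9.18 with AMAP, against 9.38, 9.10 and 9.08 with control medium, with 0.27 ± 0.19 for APAP (adjusted p = 0.431). Cfb differed by at most 0.11 between treatments (APAP minus control at 6 h, -0.11 ± 0.10), and its 3 control arrays at 24 h (12.81, 12.87 and 12.80) lay above those at 2 h (12.55, 12.40 and 12.46). That difference over time was 0.36 ± 0.10 with adjusted p = 0.0642. Cfp spanned 7.27 to 7.84, with a largest difference of 0.17 ± 0.10 (AMAP minus control at 2 h, adjusted p = 0.809).

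The terminal components C6, C8a, C8b, C8g and C9 build the pore of the membrane attack complex. C6, C8a, C8b and C9 lay below the array median on all arrays, and C8g on all but 8. None of the 5 passed the test, and their differences lay between -0.03 and 0.15 for APAP minus control at 24 h and between -0.08 and 0.19 for AMAP minus control. The regulators are factor I (Cfi), a protease that inactivates C3b and C4b, and the membrane proteins Cd55 and Cd46, which protect cells from complement. Cd55 had 4.59, 5.28 and 4.54 with APAP at 24 h and 4.40, 5.49 and 4.33 with AMAP, against 4.49, 3.93 and 4.17 with control medium. The arrays of number 31 were the highest of both treated groups and the lowest of the control group, and all values were below the array medians. The differences of 0.60 ± 0.24 for APAP (adjusted p = 0.113) and 0.54 ± 0.24 for AMAP (adjusted p = 0.373) did not pass the test. Cd46 with AMAP at 2 h had 6.70, 6.89 and 6.69, against 6.42, 6.33 and 6.52 with control medium, which did not overlap (0.34 ± 0.11, adjusted p = 0.426). Cfi spanned 9.44 to 10.55 and had its largest difference for AMAP minus control at 24 h (-0.33 ± 0.21, adjusted p = 0.614).

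**Figure D4:**
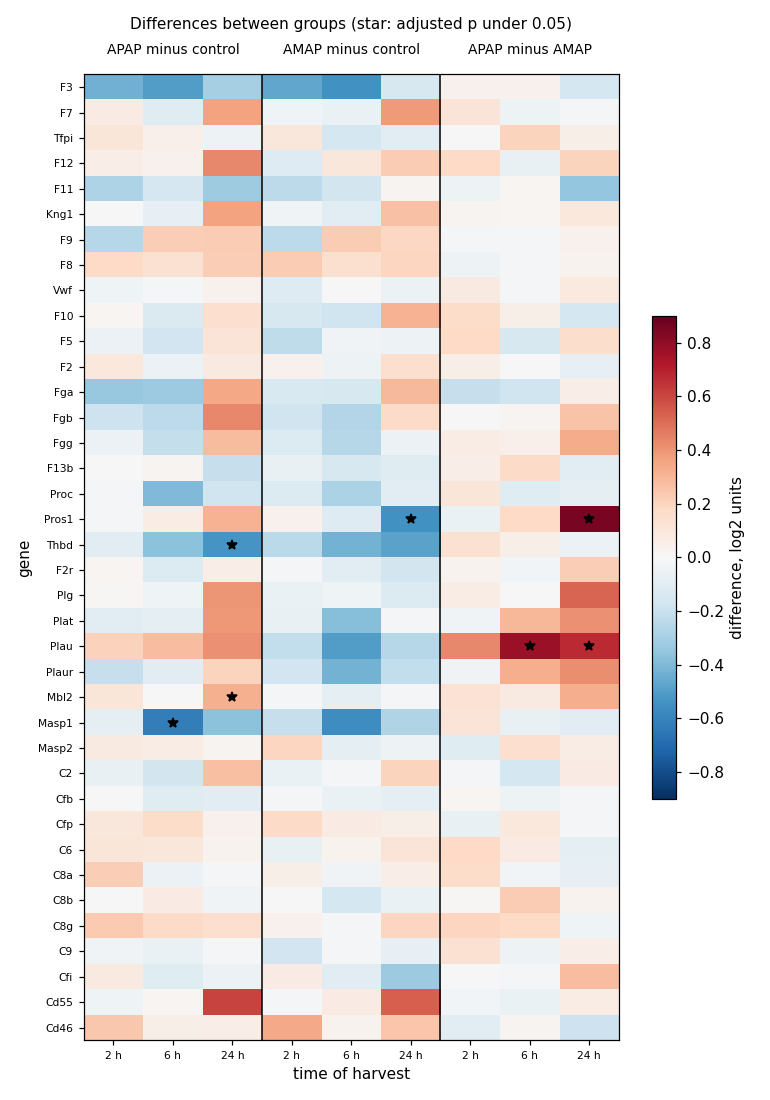
Differences on the log2 scale (colour) for the 38 genes (rows, by role) in the 9 treatment comparisons (columns); a star marks a limma adjusted p under 0.05 over all genes. The 7 stars fall on Pros1 and Plau (2 each), Thbd, Mbl2 and Masp1.

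Counted over the set, APAP against control gave 0 of 38 genes called at 2 h, where 0.682% of all genes were called. It gave 1 lower (Masp1) at 6 h, where 1.44% of all genes were called lower. At 24 h it gave 1 higher (Mbl2) and 1 lower (Thbd), where 3.36% of all genes were called higher and 5.97% lower. AMAP against control gave 0 at 2 h (0.181% of all genes) and 0 at 6 h (0.456%), and 1 lower (Pros1) at 24 h (0.416% of all genes lower). APAP against AMAP gave 0 at 2 h (0.261%), 1 higher (Plau) at 6 h (0.476% higher), and 2 higher (Pros1 and Plau) at 24 h (1.87% higher). In the comparisons with 0 calls by limma, the genes of the set with an unadjusted p under 0.05 were 3 of 38 for APAP at 2 h (9.26% of all genes), 4 for AMAP at 2 h (6.8%), 6 for AMAP at 6 h (9.47%) and 2 for APAP minus AMAP at 2 h (9.33%). The array number pairs the samples in APAP minus control at 2 h and 6 h and in AMAP minus control at 6 h, and as a block it gave 1 call (F3), 2 (F3 and Masp1) and 2 (F3 and Masp1) there. The shares of all genes above are from the fit without the block and cannot be set beside these counts.

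Genes whose 3 arrays did not overlap with those of the other group were also counted, each count being followed by the share of all genes that lay on that side. With APAP against control they were 3 above (9.46%) and 2 below (8.12%) at 2 h, 3 above (7.71%) and 4 below (8.58%) at 6 h, and 5 above (13.3%) and 2 below (13.7%) at 24 h. With AMAP against control they were 4 above (4.51%) and 2 below (6.95%) at 2 h, 0 above (6.51%) and 5 below (5.87%) at 6 h, and 6 above (8.71%) and 5 below (10.7%) at 24 h. For APAP against AMAP they were 2 above (9.7%) and 0 below (4.7%) at 2 h, 2 above (5.09%) and 0 below (5.34%) at 6 h, and 4 above (12.3%) and 1 below (10.1%) at 24 h. For APAP at 24 h the 5 above were Mbl2, Pros1, Cd55, F8 and Plat and the 2 below Thbd and Masp1. For AMAP at 24 h the 6 above were Cd46, F7, F8, Fga, C6 and F2 and the 5 below Pros1, Thbd, Masp1, Cfi and C8b. As a share of the 38 genes the counts at 24 h are 13.2% and 5.26% for APAP and 15.8% and 13.2% for AMAP. The median difference of the 38 genes at 24 h was 0.10 for APAP minus control, against 0.02 for all genes, and -0.03 for AMAP minus control, against -0.01 for all genes. At 6 h it was -0.06 for APAP and -0.09 for AMAP, against 0.00 and 0.01 for all genes, and 30 of 38 genes had a negative difference with AMAP. None of the 38 genes passed the test of a change in the effect of a compound between 24 h and 2 h or between 24 h and 6 h. In those 4 comparisons 0.356% and 0.01% of all genes were called for APAP and 0.0% for AMAP, and between 1 and 3 of the 38 genes had an unadjusted p under 0.05, as did between 3.47% and 9.46% of all genes.

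In control medium only Thbd and Tfpi passed the test between times, and most differences were positive. Between 24 h and 2 h, 33 of 38 genes had a positive difference and the median was 0.18, against 0.01 for all genes. Only Thbd and Tfpi passed the test, 2 of 38, where 0.512% of all genes were called higher. Between 6 h and 2 h, 29 of 38 differences were positive with a median of 0.13. Thbd passed, 1 of 38 (2.63%), where 0.441% of all genes were called higher. There 9 of 38 (23.7%) had an unadjusted p under 0.05, against 9.33% of all genes. Between 24 h and 6 h, 0 of 38 passed, 0 had an unadjusted p under 0.05 (7.69% of all genes did), and 0.015% of all genes were called in either direction. The median difference of the 12 hepatocyte markers was also positive, at 0.11 between 24 h and 2 h and 0.08 between 6 h and 2 h, with 0 of them called, and their part in the result was not tested. The difference between 24 h and 2 h was 0.56 ± 0.21 for Cfi (adjusted p = 0.221) and 0.48 ± 0.19 for C2 (adjusted p = 0.225).

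Of 34 further complement genes measured, 0 rose and 2 fell with APAP at 24 h, where 5.97% of all genes were called lower, and 0 passed the test in the other treatment comparisons. The 2 were C1qbp, a mitochondrial protein that can bind C1q (-0.49 ± 0.10, adjusted p = 0.00303), and the membrane regulator Cr1l (-0.34 ± 0.09, adjusted p = 0.0177). Of 33 further coagulation and fibrinolysis genes, 2 rose with APAP at 24 h, where 3.36% of all genes were called higher. They were the membrane protease matriptase (St14, 0.42 ± 0.09, adjusted p = 0.0052) and the vitamin K epoxide reductase Vkorc1 (0.36 ± 0.09, adjusted p = 0.0122). St14 had 7.70, 7.30 and 7.52 with APAP at 24 h and 6.75, 6.76 and 6.58 with AMAP, against 7.12, 7.13 and 7.02 with control medium. As with Pros1, the 3 ranges did not overlap, and here both compounds passed the test against control (AMAP -0.40 ± 0.09, adjusted p = 0.0406). The compounds differed by 0.81 ± 0.09 at 24 h (adjusted p = 3.11e-06) and by 0.39 ± 0.09 at 6 h (adjusted p = 0.049). Of all genes, 0.416% were called lower for AMAP minus control at 24 h. For APAP minus AMAP, 1.87% were called higher at 24 h and 0.476% at 6 h.

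The protein C receptor Procr was higher with APAP than with AMAP at 24 h by 0.46 ± 0.10 (adjusted p = 0.0043), where 1.87% of all genes were called higher. Thrombospondin 1 (Thbs1) was lower with AMAP than with control medium at 6 h by 0.81 (adjusted p = 0.0288), where 0.456% of all genes were called in either direction. In control cultures it was higher at 6 h than at 2 h by 0.84 ± 0.17 (limma adjusted p = 0.0178), where 0.441% of all genes were called higher. Its AMAP arrays at 6 h had 8.45, 8.65 and 8.80, and the control arrays 8.78, 8.80 and 8.23 at 2 h. Of 7 measured serpins that inhibit these cascades, 1 changed, and it was lower with both compounds at 6 h and 24 h. Of all genes, 1.44% and 5.97% were called lower with APAP at 6 h and 24 h, and 0.416% with AMAP at 24 h. With AMAP at 6 h, 0.456% of all genes were called in either direction. Heparin cofactor II (Serpind1), a thrombin inhibitor, had 9.02, 9.25 and 8.74 with APAP at 24 h and 9.13, 9.52 and 9.14 with AMAP, against 9.93, 9.81 and 9.79 with control medium. All treated arrays lay below all control arrays, and it fell by 0.84 with APAP (adjusted p = 1.3e-05) and by 0.58 with AMAP (adjusted p = 0.00724). At 6 h it fell by 0.53 with APAP (adjusted p = 0.00613) and by 0.55 with AMAP (adjusted p = 0.0163).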

How the data were processed

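Biotin-labelled total RNA of 27 TAMH samples had been hybridised to Affymetrix Mouse Gene 1.0 ST arrays, per the labels' protocols. The deposited table holds log2 values per probe set and array, made by the authors with RMA in Affymetrix Expression Console 1.1, per the submitters' processing notes; the log base was read from the values, no replicates were pooled, and detection calls were not analysed here. Of 35557 probe sets, 21789 carry 1 symbol, 1621 several and 12147 none. Values were used without further normalization.

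The 27 arrays entered 1 linear model in limma 3.58.1 (R 4.3.3), with a mean for each of the 9 groups (18 residual and 7.3 prior degrees of freedom), with eBayes, two-sided tests and Benjamini-Hochberg adjustment over 19938 genes within each comparison, called at 0.05. Intervals are 95% intervals of that model. The fit was tested on simulated data. The genes, lists and tests were chosen with earlier results of these data known. Genes that passed the test in a treatment comparison are given with every array at the times where they passed. Most others are given by range and largest difference, and genes of other lists where called. F3, the fibrinogens, F11, F12, Plat, Plg, C2, Cd55 and Cd46 were given by array after their values were seen. Array numbers were taken to pair samples where deviations from group means correlated above 0.1 for each number, which held in 5 of 9 treatment comparisons. The promoter windows and motif matches were read from RefSeq tables. Alternatives covered the number as a block, the arrays fitted, scaling, dim genes (mean under 6), probe set choice and left-out arrays. The block was added to the model of all 27 arrays, with the same shift per number in every group.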

Additional observations from a re-analysis of the deposited data

Results flagged for a closer look

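In 2 cases every APAP array lay above every control array while every AMAP array lay below every control array. Plau at 6 h differed between the compounds by 0.77 (APAP minus AMAP, limma adjusted p = 0.00861), and Pros1 at 24 h by 0.86 (adjusted p = 4.01e-05). These values test a difference between the compounds, not opposite directions. Against control, Pros1 had adjusted p = 0.104 with APAP and 0.0241 with AMAP, and Plau had 0.504 with APAP and 0.175 with AMAP, so opposite changes were not shown.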

How the results depend on the processing

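Of 10 called results on single genes, each was recomputed under 15 settings, and of the 150 values 99 kept their call, 51 kept their direction without passing the test and 0 reversed. Pros1 (APAP minus AMAP at 24 h) and Thbd (control 24 h minus 2 h) kept their calls throughout. With the replicate number as a block the genes called for APAP minus control numbered 1 at 2 h, 2 at 6 h and 5 at 24 h, and for AMAP minus control 2 at 6 h and 2 at 24 h, against 0, 1, 2, 0 and 1 without it. The pairing of numbers did not hold in the comparisons with control at 24 h, where the block added Masp1, Plau and Pros1 for APAP and Thbd for AMAP. For APAP minus AMAP at 24 h, where the numbers were taken to pair the samples, the block gave 3 genes (Mbl2 added), against 2 without it. The block changed no count in the other comparisons. No share of all genes called with the block is given, so whether these counts exceed it cannot be read here. With only the arrays compared, the count was 0 for APAP minus control at 24 h, 1 for APAP minus AMAP at 24 h and 1 for control 24 h minus 2 h. It was 1 for APAP minus control at 24 h after quantile normalization, and 1 there and 1 for control 24 h minus 2 h after centring the arrays. Centring also turned the median of the 38 genes for APAP minus AMAP at 2 h from 0.04 to -0.02, while the median of all genes moved alike, from 0.03 to -0.03. The split of all genes called higher and lower for APAP minus control at 24 h was 670 and 1190, 899 and 1013 after quantile normalization and 518 and 1675 after centring; for APAP minus AMAP at 24 h it was 373 and 555, 435 and 517, and 302 and 1123; for control 24 h minus 2 h it was 102 and 125, 165 and 144, and 83 and 214.

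Leaving out single arrays or a whole number gave 0 to 1 genes for APAP minus control at 6 h, 0 to 3 at 24 h, 0 to 1 for AMAP minus control at 24 h, 0 to 1 and 1 to 4 for APAP minus AMAP at 6 and 24 h, 0 to 1 for control 6 h minus 2 h and 1 to 2 for control 24 h minus 2 h. Where a group is left with fewer arrays, its spread is taken from all groups. The causes of these shifts were not tested. The 9 genes below the array median on all arrays limit what can be read from their small differences.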
